A study of Mus musculus with 6 samples.

Results

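UDP-glucuronosyltransferases (UGTs) were measured in the livers of male C57BL/6J mice kept on a control diet or on a diet lacking choline and folic acid. The 10 genes described here are Ugt1a1, Ugt1a9, Ugt2a1, Ugt2a3, Ugt2b1, Ugt2b5, Ugt2b34, Ugt2b35, Ugt2b36 and Ugt2b38. They were taken by gene name from the spots of Agilent single-dye (Cy3) arrays that are not controls, with every probe shown. Spots with these names were found for 9 of the 10 genes, among 27962 gene names on the array, and they made up 11 of its 41174 probes. No spot carried the name Ugt2b36. Its transcript is listed only as the second match of a probe named Ugt2b37, so Ugt2b36 has no level of its own here.

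C57BL/6J is an inbred laboratory strain. Mice were assigned to a diet at random at 8 weeks of age and were killed 12 weeks later, at 20 weeks. Both groups ate an amino acid-defined base diet with added iron. The CFD diet contained 0.17% methionine, no choline and no folic acid. The control diet was the same base with folic acid (2 mg/kg), methionine (0.4%) and choline bitartrate (0.3%). Each group had 3 arrays of total liver RNA. Whether the arrays of a group came from different mice is not given in the labels, and the p-values therefore reflect array-to-array spread that may be technical. The comparison asks how the diet changed liver gene expression.

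UGTs sit in the membrane of the endoplasmic reticulum and join glucuronic acid, taken from UDP-glucuronate, to bilirubin, steroids, bile acids, drugs and other lipophilic molecules, which makes them soluble enough to leave in bile or urine. Liver hepatocytes carry most of this activity. In the Ugt1 locus, alternative first exons are spliced to a shared set of later exons, so Ugt1a enzymes differ in the substrate-binding part and share the rest. The Ugt2 genes lie side by side in a cluster and resemble each other closely in sequence.

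Every probe of the genes described here that could be tested was lower in the CFD diet livers. Below, UGT probes means the probes of these genes. A probe was tested when it was well above background, by the scanner software's own mark, on all 3 arrays of at least 1 group. Of the 11 probes, 10 met this, and all 10 were well above background on all 6 arrays. In limma, with p-values adjusted by Benjamini and Hochberg over all 23510 tested probes and a threshold of 0.05, 10 of the 10 tested probes were lower and 0 were higher. Of all tested probes, 27.6% were lower, 22.1% were higher and 49.7% changed in either direction, so change was common in these livers. These shares stand for 6482 probes lower and 5202 higher. After scaling to the array median the split was 8872 lower and 3989 higher, and all 10 UGT probes were again called lower. That scaling lowers every difference by about the same amount, so it could not turn a fall into a rise. After quantile normalization 9 UGT probes were called lower, and Ugt2b34 was not called (-0.25, limma adjusted p = 0.232). The CFD diet values lay below all control values for 10 of 10 UGT probes and for 34.8% of all tested probes. A fall that was both called and at least 2-fold was seen for 8 of the 10 UGT probes and for 9.78% of all tested probes. The median log2 difference, CFD diet minus control, was -1.88 over the 10 UGT probes and -0.12 over all tested probes. Differences ranged from -2.69 for Ugt1a9 to -0.48 for Ugt2b34. In whole liver RNA, fewer hepatocytes and less UGT RNA per hepatocyte cannot be told apart.

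Signals below are multiples of the 75th percentile of the same array, a scale on which levels of different probes are not comparable. Folds are ratios of geometric means, errors on log2 differences are limma standard errors, and each group has n = 3. The arrays lay on 3 slides, with 1 array of either group on each, so a within-slide difference is also given for each gene.

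The Ugt1 locus on chromosome 1 was represented by Ugt1a1 and Ugt1a9. Ugt1a1 is the enzyme that conjugates bilirubin, and its probe lies at chr1:88115927-88115986 in mouse build mm7, plus strand. In controls 1 to 3 it read 11.1, 10.8 and 10.8, and in CFD diet samples 1 to 3 it read 4.39, 5.03 and 3.59. The groups did not overlap, and the control values lay within a narrow band. Ugt1a1 fell by 1.34 ± 0.15 on the log2 scale (2.54-fold lower, adjusted p = 0.000903). The within-slide differences were -1.33, -1.10 and -1.59.

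Ugt1a9 conjugates phenols and related compounds, and its probe lies 140.8 kb from that of Ugt1a1, at chr1:87975078-87975137 in mm7. It read 1.46, 1.29 and 1.34 in controls and 0.204, 0.398 and 0.116 on the CFD diet. All CFD diet arrays were below all controls, and they also differed from each other by more than the controls did. Ugt1a9 fell by 2.69 ± 0.41 (6.45-fold lower, adjusted p = 0.00262). With normexp background correction the difference was -1.97, smaller than those of Ugt2a3 (-2.17) and of both Ugt2a1 probes (-2.16 and -2.20) under the same correction, so the order of the largest falls depends on the background treatment. Within slides 1 to 3 the difference was -2.85, -1.69 and -3.53. On each array the log2 ratio of Ugt1a9 to Ugt1a1 was -2.92, -3.07 and -3.02 in controls and -4.43, -3.66 and -4.95 on the CFD diet. The mean difference of this ratio, CFD diet minus control, was -1.35, with no overlap between groups. It is given as a description, with no test. The gap between these probes was smaller with normexp, where the differences were -1.97 for Ugt1a9 and -1.33 for Ugt1a1.

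A further probe of this locus, named Ugt1a6b, lists transcripts of Ugt1a6b, Ugt1a1, Ugt1a5 and Ugt1a10 and therefore cannot be assigned to a single gene. It was lower on the CFD diet (adjusted p = 0.00374, 2.14-fold lower), with a signal of 233 to 248 in controls and 94.4 to 146 on the CFD diet. The probe that lists Ugt1a6b alone differed by -1.62 ± 0.19 (adjusted p = 0.00107).

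**Figure D1:**
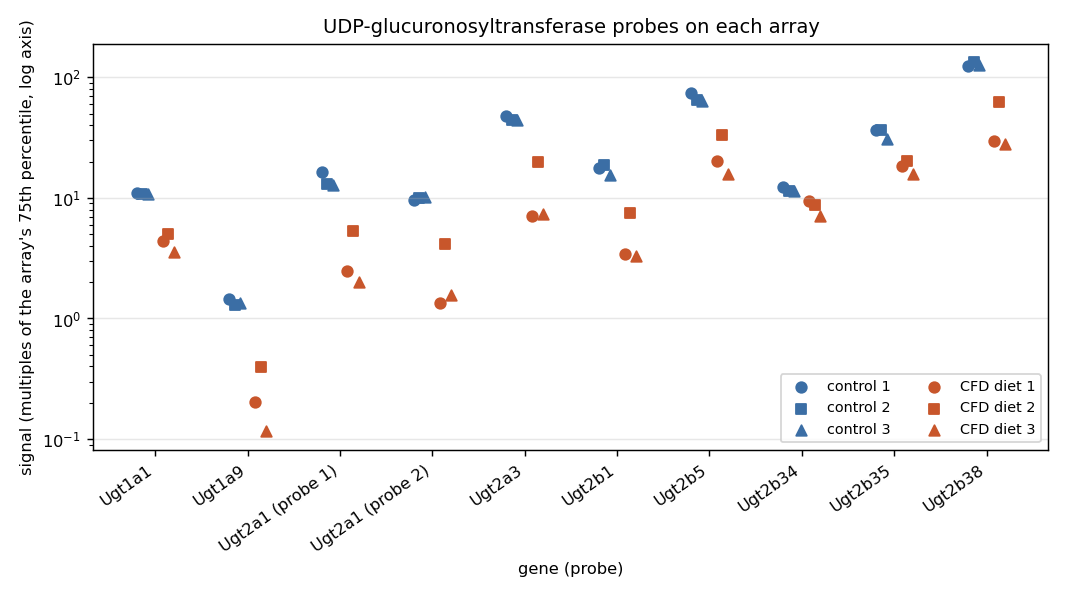
Signal of the 10 tested UGT probes (x axis) on each array, in multiples of the array's 75th percentile (log y axis); blue marks are the 3 control arrays, orange marks the 3 CFD diet arrays, and a mark's shape gives the replicate number. All orange marks lie below all blue marks of the same probe, and CFD diet array 2 is the highest orange mark for 9 of the 10 probes.

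The other 9 probes lie in the Ugt2 cluster on chromosome 5. The tested ones span 573.5 kb. Ugt2a1 is known for its expression in the olfactory epithelium, and in the liver RNA measured here 2 of its 3 probes were well above background on all arrays. The first of them (chr5:87398867-87399681, mm7) read 16.5, 13.1 and 12.8 in controls and 2.48, 5.33 and 2.02 on the CFD diet. The second (chr5:87399702-87400835) read 9.56, 10.04 and 10.23 in controls and 1.34, 4.17 and 1.57 on the CFD diet. For both, CFD diet array 2 stood above the other CFD diet arrays and below every control. The first probe fell by 2.23 ± 0.35 (4.70-fold lower, adjusted p = 0.0030) and the second fell by 2.27 ± 0.41 (4.82-fold lower, adjusted p = 0.00456). Within slides 1 to 3 the differences were -2.73, -1.30 and -2.67 for the first probe and -2.83, -1.27 and -2.71 for the second.

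The other Ugt2a1 probe (chr5:87398687-87398746, mm7) was well above background on 0 of 3 control arrays and on 1 of 3 CFD diet arrays, with a mean signal of 0.0093 ± 0.0030 (SD) in controls and 0.0072 ± 0.0031 on the CFD diet. It was not tested. In the RefSeq table of assembly GRCm38.p6, Ugt2a2 lies within the span of Ugt2a1, so signal from Ugt2a2 on these probes cannot be told apart from Ugt2a1 here. Of 4 olfactory epithelium markers (Omp, Cnga2, Gnal and Bpifa1), 2 were tested, 0 were called in either direction, and their summed signal was 0.0842 to 0.138 in controls and 0.0742 to 0.127 on the CFD diet.

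Ugt2a3, a close relative of Ugt2a1, read 48.2, 44.3 and 44.7 in controls and 7.07, 20.0 and 7.42 on the CFD diet (chr5:87262144-87262203, mm7). The groups were apart, and CFD diet array 2 was again nearest to the controls. Ugt2a3 fell by 2.17 ± 0.39 (4.50-fold lower, adjusted p = 0.00458), with within-slide differences of -2.77, -1.15 and -2.59.

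Among the Ugt2b enzymes, which conjugate steroids and many drugs, Ugt2b1 (chr5:86854051-86854110, mm7) read 17.7, 18.7 and 15.6 in controls. It read 3.44, 7.43 and 3.28 on the CFD diet. All CFD diet values were below every control. Ugt2b1 fell by 1.98 ± 0.32 (3.95-fold lower, adjusted p = 0.00306), with within-slide differences of -2.36, -1.33 and -2.25.

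Ugt2b5 (chr5:87061937-87061996, mm7) read 73.9, 65.2 and 63.6 in controls and 20.4, 33.5 and 15.8 on the CFD diet. The lowest control remained well above the highest CFD diet array. Ugt2b5 fell by 1.61 ± 0.27 (3.05-fold lower, adjusted p = 0.00367), with within-slide differences of -1.86, -0.96 and -2.01.

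Ugt2b38 (chr5:87358365-87358424, mm7) read 124, 133 and 126 in controls and 29.9, 62.5 and 28.0 on the CFD diet. The groups did not overlap. It fell by 1.77 ± 0.30 (3.41-fold lower, adjusted p = 0.00394), and the within-slide differences were -2.05, -1.09 and -2.17. Transcripts of Ugt2b37 and Ugt2b5 are listed on this probe beside those of Ugt2b38, so its value may include all of them and is uncertain for Ugt2b38 alone.

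Ugt2b35 (chr5:86949459-86949518, mm7) is the only tested member of the cluster read from the plus strand. Its signal was 36.6, 36.7 and 30.5 in controls and 18.3, 20.1 and 15.8 on the CFD diet. The groups were separate, and the spread within the CFD diet group was narrow. Ugt2b35 fell by 0.94 ± 0.15 (1.92-fold lower, adjusted p = 0.0029). Here the within-slide differences of -1.0, -0.87 and -0.95 lay close together.

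Ugt2b34 (chr5:86827294-86827353, mm7) changed least. It read 12.2, 11.5 and 11.4 in controls and 9.44, 8.81 and 7.07 on the CFD diet. All CFD diet values were below the controls, by a small margin. Ugt2b34 was lower by 0.48 (-0.48 ± 0.15, 1.40-fold lower, adjusted p = 0.0301), with within-slide differences of -0.37, -0.38 and -0.70. Of all tested probes, 27.9% had a difference as low or lower. This call was lost in 7 of 15 alternatives, with the weakest value of -0.25 (adjusted p = 0.232) after quantile normalization. Without CFD diet replicate 3 the adjusted p was 0.0873, and without control replicates 1, 2 and 3 it was 0.0893, 0.0683 and 0.0820.

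Ugt2b34 and Ugt2b1 are neighbours whose probes lie 26.8 kb apart. The log2 ratio of Ugt2b1 to Ugt2b34 was 0.54, 0.71 and 0.45 in controls 1 to 3 and -1.46, -0.25 and -1.11 in CFD diet samples 1 to 3. The ratio was lower in the CFD diet sample on every slide, and the mean difference, CFD diet minus control, was -1.50. Only this change can be read, since the level of the ratio depends on the brightness of the probes. This is a description of these arrays, with no test. Along the cluster, the smallest falls belonged to Ugt2b34 and Ugt2b35, and Ugt2b1, which lies between them, fell more than either.

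**Figure D2:**
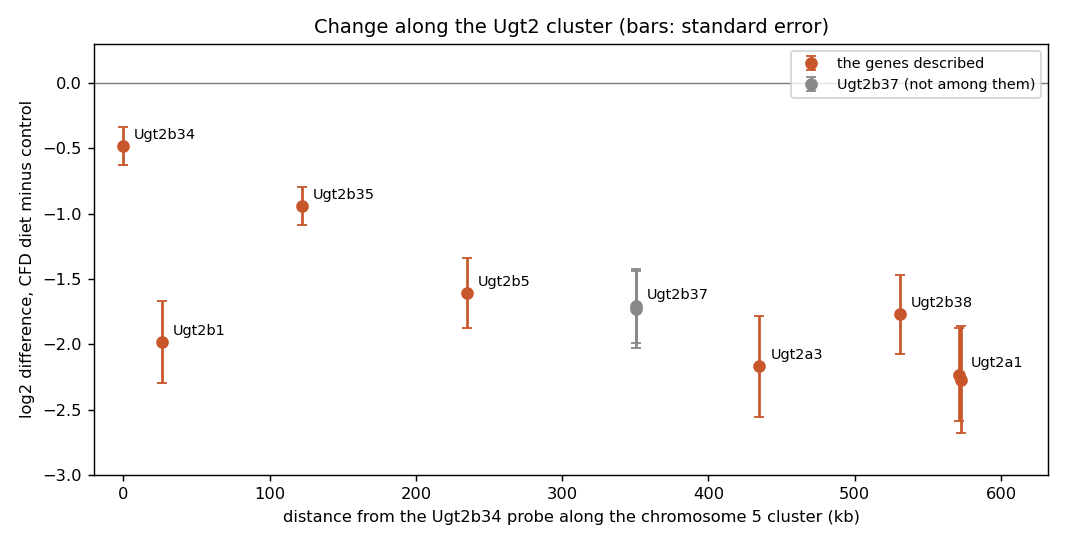
Log2 difference, CFD diet minus control (y axis), of each tested Ugt2 probe against its distance in kb from the Ugt2b34 probe (x axis); orange points are the genes described, grey points the 2 Ugt2b37 probes, and bars are limma standard errors. Ugt2b34 (-0.48) and Ugt2b35 (-0.94) lie nearest to 0, and Ugt2b1 between them is at -1.98.

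CFD diet array 2 had the highest CFD diet signal for 9 of the 10 tested UGT probes, the exception being Ugt2b34. The 75th percentile used for scaling was 404.1 on this array and 617.8 and 670.2 on CFD diet arrays 1 and 3. In controls it was 365.0 to 438.8. The order of the CFD diet arrays is therefore relative to this scaling. Without CFD diet array 2 all 10 probes were still called. The differences then were -3.15 for Ugt1a9, -2.66 for Ugt2a3, -2.36 for Ugt2b1 and -0.52 for Ugt2b34. The same array had the highest CFD diet signal for 8 of 9 hepatocyte markers, and its part in the UGT results beyond this was not tested. With the slide as a block all 10 probes stayed lower, with adjusted p-values from 0.00561 (Ugt1a1) to 0.0489 (Ugt2b34).

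**Figure D3:**
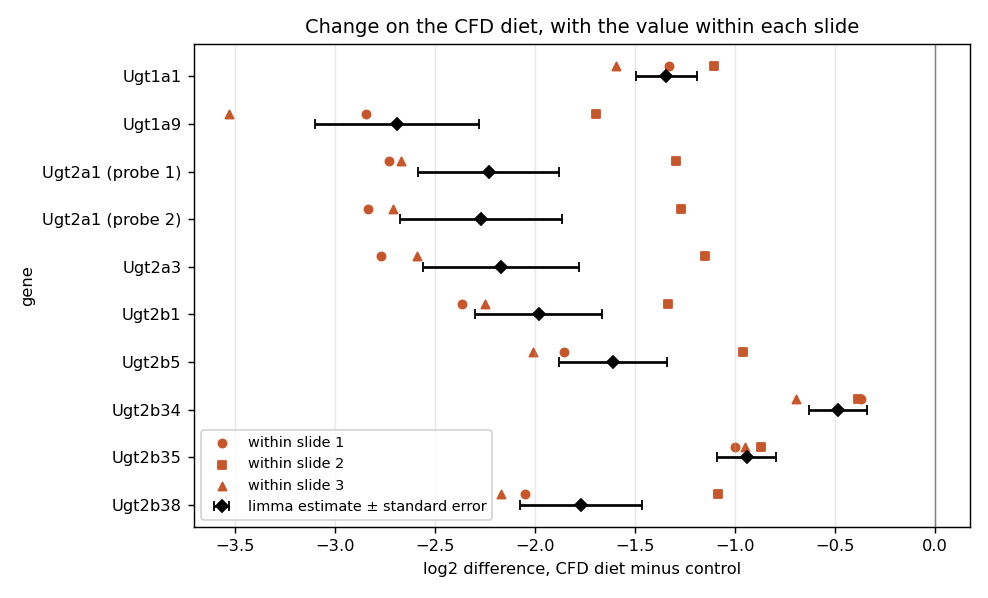
Log2 difference, CFD diet minus control (x axis), for each tested UGT probe (y axis); diamonds with bars are the limma estimate and its standard error, and orange marks are the differences within slides 1, 2 and 3. All marks lie below 0, and for every probe except that of Ugt2b34 the mark of slide 2 lies nearest to 0.

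Markers of several liver cell types moved with the diet. Of 11 hepatocyte markers, 9 were on the array and tested, all of them well above background on every array; 6 were lower and 0 higher, with a median difference of -0.63. Their summed signal was 2800.5 to 3505 in controls and 1709 to 2729 on the CFD diet. All 6 cholangiocyte markers rose, with a summed signal of 5.75 to 8.91 in controls and 88.5 to 123 on the CFD diet. Among them, Cftr was not well above background on any control array, and Epcam was so on 1 of 3. All 7 stellate and myofibroblast markers rose, with a summed signal of 11.3 to 13.2 against 37.0 to 50.2. Of 6 macrophage markers 5 rose and 1 fell (46.3 to 69.2 against 72.1 to 106). Among those that rose, Itgam was well above background on 1 of 3 control arrays. The part of these markers in the UGT results was not tested.

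Other marker lists moved less evenly. Of 5 endothelial markers 2 fell and 1 rose, with a summed signal of 10.6 to 11.1 in controls and 7.67 to 8.44 on the CFD diet. Of 5 lymphocyte markers 4 were tested, of which 1 fell and 1 rose (1.40 to 1.95 against 2.47 to 4.26). Of 5 intestinal epithelium markers 2 were tested. Vil1 rose, from 0.0668 to 0.112 in controls to 0.367 to 0.555 on the CFD diet. Fabp2 was not called (adjusted p = 0.117) and made up nearly all of the summed signal of 48.5 to 70.3 in controls and 70.2 to 121 on the CFD diet.

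The remaining genes of the family were read from a list of 12, of which 5 had a named and tested probe. Ugt1a2, Ugt1a5, Ugt1a6a, Ugt1a7c, Ugt1a8, Ugt1a10 and Ugt2a2 had none and were not tested. With 1 probe per gene, 27.2% of the 15928 tested genes were lower and 23.6% were higher. Of the 5 UGT genes 4 were lower and 1 was higher. Besides Ugt1a6b, these were Ugt2b37, Ugt3a1 and Ugt3a2, with differences of -1.73 ± 0.30, -1.81 ± 0.34 and -1.70 ± 0.27. The brighter Ugt2b37 probe is the one that also lists Ugt2b36, and it read 134 to 148 in controls and 31.2 to 69.6 on the CFD diet. The other Ugt2b37 probe differed by -1.71. Ugt3 enzymes use other UDP-sugars as donors.

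Ugt8a, which adds galactose to ceramide in myelin-forming cells, was called higher on 1 of its 3 probes. The other 2 probes were well above background on 0 of 6 arrays and were not tested. The tested probe was not well above background on any control array and was so on all 3 CFD diet arrays (0.0564, 0.0526 and 0.0609). This gives a level at least 2.40-fold higher on the CFD diet, a bound that was not itself tested. The limma call (2.76 ± 0.34, adjusted p = 0.00124) used control signals that were not well above background. The bound sets the CFD diet mean against the lowest signal that counted as well above background on each control array. With normexp background correction the Ugt8a difference was not called (adjusted p = 0.0932).

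Of the 14 genes listed as making or using UDP-glucuronate, all were tested, 6 were lower and 2 higher, with a median difference of -0.26 (all tested genes: 27.2% lower, 23.6% higher). Rgn (gluconolactonase) differed by -1.63 ± 0.33 (adjusted p = 0.00681), with signals of 423 to 455 in controls and 103 to 247 on the CFD diet. Cryl1 (gulonate dehydrogenase) and Dcxr (xylulose reductase) of the glucuronate pathway differed by -1.32 ± 0.28 and -1.05 ± 0.24. A second Dcxr probe was lower by a similar amount (-1.24), and another was not called (-0.40). The 2 genes that rose were Pgm2, a phosphopentomutase and phosphoglucomutase (1.70 ± 0.20, and 0.83 with normexp), and Gusb, the lysosomal glucuronidase that removes glucuronic acid (0.71 ± 0.15). This brighter Gusb probe was not called after scaling to the array median (0.50, adjusted p = 0.0539). A second Gusb probe rose by 1.15 ± 0.16 in the limma fit (adjusted p = 0.0020) and was not followed through the alternatives.

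The enzyme that makes UDP-glucuronate itself, Ugdh, differed by -0.72 ± 0.15 (adjusted p = 0.00805), with signals of 51.1, 47.9 and 54.2 in controls and 29.4, 37.0 and 27.5 on the CFD diet. Ugp2, which makes its precursor UDP-glucose, was not called (-0.18 ± 0.15, adjusted p = 0.348), and its groups overlapped. Slc35d1, a transporter that carries UDP-glucuronate into the endoplasmic reticulum, was not called on its brighter probe (-0.15). Its other probe was called higher (adjusted p = 0.0152), but it was well above background on only 1 of 3 control arrays. Ugdh, Ugp2 and Slc35d1 were singled out after their values were seen.

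Of 14 genes of bilirubin handling and glucuronide transport, all tested, 4 were lower and 3 higher, with a median difference of -0.22. These counts are near the shares over all tested genes (27.2% lower, 23.6% higher) and are no result about the list. Hmox1, the inducible haem oxygenase that starts bilirubin formation, read 5.81, 6.42 and 6.32 in controls and 19.0, 21.8 and 28.8 on the CFD diet. It rose by 1.89 ± 0.17 (adjusted p = 0.000446). Hmox2, the constitutive form, differed by 0.59 ± 0.11 and was not called after scaling to the array median (0.39, adjusted p = 0.0686). Among exporters, Abcc4, at the basolateral membrane, rose by 3.11 ± 0.32 (adjusted p = 0.000637), from 0.405 to 0.757 in controls to 3.39 to 6.18 on the CFD diet. Abcc3, also basolateral and known to carry glucuronides, differed by -1.15 ± 0.21 (adjusted p = 0.00471).

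Among uptake carriers, Slco1b2, which takes up bilirubin and its conjugates, differed by -1.38 ± 0.25 (adjusted p = 0.00481). Slco1a1, another organic anion carrier, read 10.1, 8.18 and 9.07 in controls and 0.0101, 2.65 and 0.0102 on the CFD diet. CFD diet array 2 thus differed widely from the others, which were close to background. It was well above background on 2 of 3 CFD diet arrays. Its fitted difference was -7.13 ± 2.05 (adjusted p = 0.0258), and its size is not settled: it was -4.47 with normexp, -9.81 without CFD diet replicate 2, -5.79 without CFD diet replicate 1 and -5.80 without CFD diet replicate 3. The call was lost without control replicates 1, 2 and 3 (adjusted p = 0.0623, 0.0604 and 0.0647), without CFD diet replicates 1 and 3 (0.0763 and 0.0836), without the filter on dim probes (0.0836) and with the trend and robust settings (0.0555).

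Among 23 genes listed as regulators of UGT genes, 21 were tested, 14 were lower and 2 higher, with a median difference of -0.73 (all tested genes: 27.2% lower, 23.6% higher). Cux2 and Cdx2 were not well above background on all arrays of either group and were not tested. Cebpa, a hepatocyte transcription factor, differed by -1.59 ± 0.27 (adjusted p = 0.00399), and Nr1h4, the bile acid receptor FXR, by -1.37 ± 0.26. The xenobiotic receptors Nr1i2 (PXR) and Nr1i3 (CAR) differed by -1.13 ± 0.14 and -1.11 ± 0.26, and Hnf4a, a nuclear receptor of hepatocytes, by -1.0 ± 0.19. These last 3 were singled out after their values were seen.

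The 2 regulators that were higher were Esr1, an oestrogen receptor (0.63 ± 0.20, adjusted p = 0.0363), and Nfe2l2, the NRF2 factor of the antioxidant response (0.45 ± 0.13, adjusted p = 0.0299). Neither was called after scaling to the array median, without the filter on dim probes or with the slide as a block. Both calls were also lost without control replicates 2 and 3 and without CFD diet replicates 1 and 3, and the call of Esr1 also without control replicate 1 (adjusted p = 0.101). The other 3 probes of Nfe2l2 were not called.

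**Figure D4:**
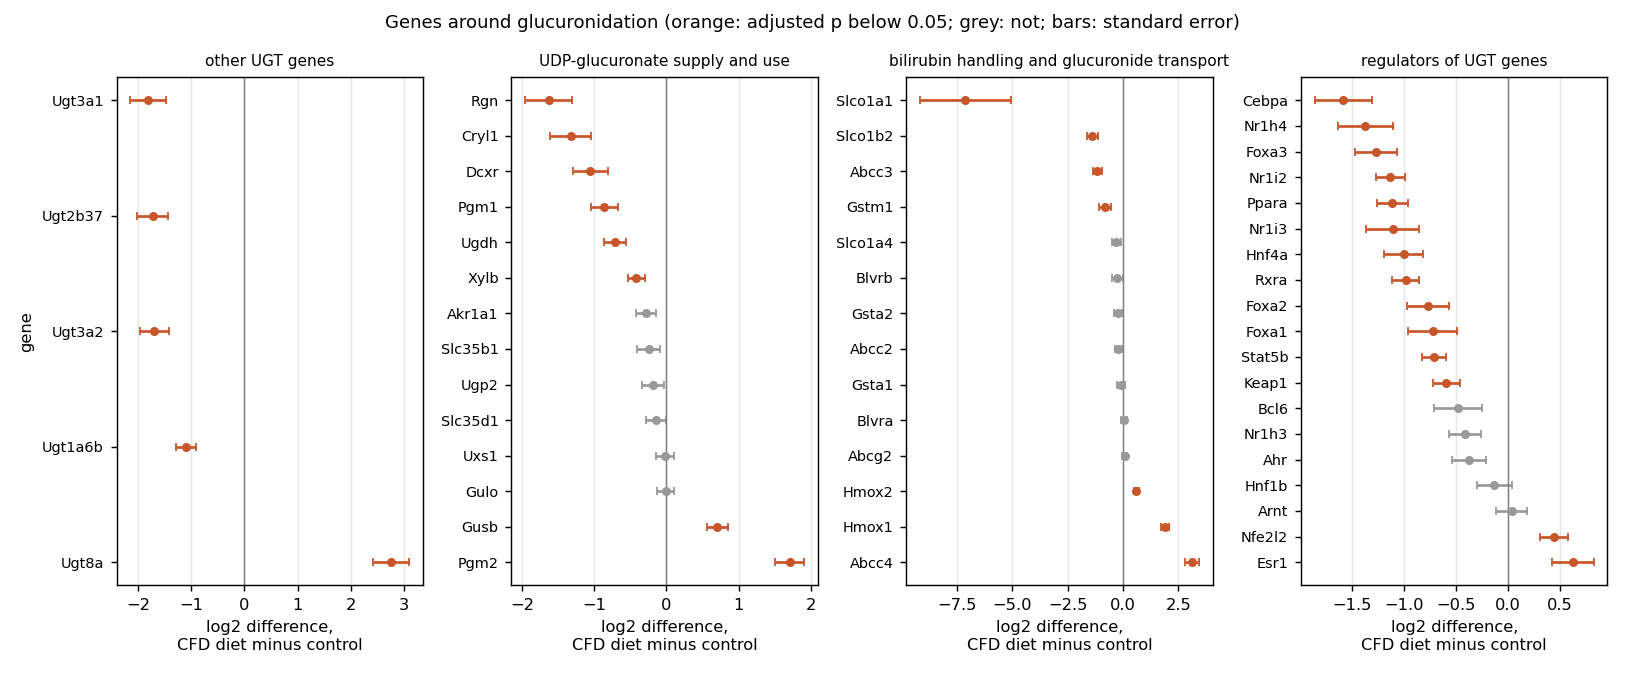
Log2 difference, CFD diet minus control (x axes), of tested genes (y axes) in 4 lists around glucuronidation; bars are limma standard errors, orange is an adjusted p below 0.05 and grey is not. Not every tested regulator is drawn. Most drawn regulators lie below 0, and in the bilirubin and transport list Abcc4 (3.11) and Hmox1 (1.89) lie farthest above 0.

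The 5 tested genes whose log2 signals followed Ugt2b1 most closely over the 6 arrays, among 15862 genes compared, were F13b (Pearson r = 0.999), Sdr42e1 (0.999), a transcript without a gene symbol (0.999), Afm (0.999) and Camk2n1 (0.998). The 6 arrays fall into 2 diet groups and share this split, so r is a description. F13b is a subunit of coagulation factor XIII and Afm is afamin, a plasma protein made by the liver. Their log2 differences were -1.12 and -1.51, and those of Sdr42e1 and Camk2n1 were -1.28 and -0.94.

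The promoters of the 10 genes were read from the RefSeq table (GRCm38.p6), which holds 32851 promoters of 300 bases, 250 before and 50 after the start. Their part in the UGT results was not tested. All 10 genes had an entry. The 100 bases before the start are shown 5′ to 3′ on the gene's strand. They are given for the Ugt2b genes with the smallest falls, for those with larger ones, and for Ugt2b36, which has no level here. Capitals mark matches, on either strand, of GTTA and TTAAC with 4 bases between them. This spaced repeat was chosen after the promoters were read.
Ugt2b34 (chr5:86906938-86907037, minus strand): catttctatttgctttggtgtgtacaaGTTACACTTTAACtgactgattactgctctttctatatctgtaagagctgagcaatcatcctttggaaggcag
Ugt2b35 (chr5:87000760-87000859, plus strand): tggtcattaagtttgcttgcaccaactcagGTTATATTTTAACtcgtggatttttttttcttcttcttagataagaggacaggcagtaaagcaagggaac
Ugt2b1 (chr5:86926504-86926603, minus strand): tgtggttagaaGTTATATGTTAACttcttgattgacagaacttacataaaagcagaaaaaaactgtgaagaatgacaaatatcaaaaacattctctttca
Ugt2b5 (chr5:87140341-87140440, minus strand): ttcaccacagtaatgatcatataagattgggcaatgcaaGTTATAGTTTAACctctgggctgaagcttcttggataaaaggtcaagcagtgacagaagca
Ugt2b38 (chr5:87424204-87424303, minus strand): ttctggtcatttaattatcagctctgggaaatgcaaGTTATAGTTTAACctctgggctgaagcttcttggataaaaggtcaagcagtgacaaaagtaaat
Ugt2b36 (chr5:87092556-87092655, minus strand): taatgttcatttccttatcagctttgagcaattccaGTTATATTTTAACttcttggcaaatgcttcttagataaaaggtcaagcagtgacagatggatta

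This repeat was found in 6 of the 10 promoters, all of them Ugt2b genes, and in 62 (0.189%) of the promoters in the table. Its first base lies at -89 in Ugt2b1, -73 in Ugt2b34, -70 in Ugt2b35, -64 in Ugt2b36 and Ugt2b38 and -61 in Ugt2b5, counted from the start. Genes with the smallest falls and genes with larger ones both held it. Ugt2b5 and Ugt2b38 shared the same 13 letters, GTTATAGTTTAAC. These promoters descend from duplicated genes and are not independent of each other.

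The remaining promoters with a match held the shorter motif GTTAAT, which occurs in 7.1% of promoters and, in the table's windows, in 3 of the 10 UGT promoters. The promoters of the Ugt1 genes and of Ugt2a3 are shown with this motif in capitals.
Ugt1a1 (chr1:88211859-88211958, plus strand): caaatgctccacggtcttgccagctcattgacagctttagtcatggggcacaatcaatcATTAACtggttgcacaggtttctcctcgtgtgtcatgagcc
Ugt1a9 (chr1:88070679-88070778, plus strand): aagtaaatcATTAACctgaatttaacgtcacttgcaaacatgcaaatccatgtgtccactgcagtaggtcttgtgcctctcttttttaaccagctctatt
Ugt2a3 (chr5:87337196-87337295, minus strand): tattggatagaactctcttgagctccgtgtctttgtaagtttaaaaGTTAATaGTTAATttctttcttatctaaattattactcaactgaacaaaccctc

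In Ugt1a1 and Ugt1a9 the match is on the opposite strand, and in Ugt2a3 there are 2 matches, at -54 and -47. Ugt2a1 held neither motif. The nuclear receptor core AGGTCA was found in 5 of the 10 promoters (Ugt1a9, Ugt2b5, Ugt2b35, Ugt2b36 and Ugt2b38) and in 16.3% of all. The HNF4 site CAAAGTCCA (0.475% of all promoters), the dioxin response core GCGTG (32.4%), the antioxidant response motif TGACNNNGC (12.4%) and the STAT5 motif TTCNNNGAA (8.3%) were found in 0 of the 10. All motifs were searched on both strands; GTTAAT can overlap the spaced repeat, and AGGTCA on the opposite strand can overlap TGACNNNGC. A match shows only that the letters are present in this window, and a motif not found says only that they are not.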

How the data were processed

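Total liver RNA of 3 control and 3 CFD diet samples was hybridised to Agilent arrays. The deposited scanner files hold spot intensity values, background-subtracted by Feature Extraction (version 10.5.1.1 per the file headers, 10.7 per the submitters' processing notes), with coordinates in build mm7 per the file headers. From these, log2 of the processed signal minus the array's 75th percentile was computed, control and outlier spots were left out, spots of a probe were averaged, and groups, taken from the labels, were compared with limma 3.58.1 (lmFit and eBayes) in R 4.3.3, with Benjamini-Hochberg adjustment. Lists use each gene's brightest tested probe. Probes were named through the RefSeq table where an accession or symbol matched (22951 by accession, 6659 by symbol, 3109 by older symbol), and 8455 kept the file's name.

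Control arrays had 21719 to 26318 probes well above background and CFD diet arrays 23625 to 29094, with no saturated spot (0); the number of arrays limits the precision. Arrays correlated at 0.989 to 0.993 within controls, 0.981 to 0.990 within the CFD diet group and 0.914 to 0.952 between groups, across probes, which are not replicates. The deposited value table holds linear intensity values with column medians from 61.5 to 80.6; by rank, each matched an array of the same group with a different replicate number. Replicates follow the scanner files, and which numbering is intended is unknown. The deposited value table served as an alternative. Its column 75th percentiles were 999.5 to 1000.0, so it repeats the main scaling and is no independent check. No column of values was left unmapped (0).

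Same-numbered arrays share a slide, per the file headers. The deviations of same-numbered arrays from their group means correlated at 0.10, -0.08 and -0.00063. The fit was tested on simulated data.

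The members and lists were chosen with earlier results of these data known. Named genes are all members, from each list the called genes with the 3 largest rises and 3 largest falls and any untested gene, and the 5 genes most like Ugt2b1; some regulators are counted and not reported here by name. The alternatives were other scaling, background correction, filters, variance settings and source of values, the slide as a block, 1 probe per gene and each array left out. A comparison of protein sequences was planned and not run, since no protein table was used here.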

Additional observations from a re-analysis of the deposited data

How the results depend on the processing

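In the 15 alternatives, 0 UGT probes changed direction, and 0 of the genes named as largest rises or falls of a list did. For the UGT probes most alternatives could not have shown a reversal. The filters, variance settings, slide block and 1 probe per gene leave a probe's estimate as it was. The deposited values repeat the main scaling (Ugt1a1: -1.3436 against -1.3440). Leaving out 1 array cannot reverse groups that do not overlap. Other scaling and normexp could have changed the direction. The other genes named here, among them Ugdh, Nr1i2, Nr1i3 and Hnf4a, were not followed one by one. The count of UGT probes called lower was 9 or 10 in each alternative, and only the call of Ugt2b34 was lost. In the fit with 1 probe per gene a Ugt2a1 probe is left out. Scaling to the array median moved the median of all tested probes from -0.12 to -0.33 and the split of all calls from 6482 lower and 5202 higher to 8872 lower and 3989 higher, so differences are relative to the scaling. Without the filter on dim probes 3661 probes were lower; with single arrays left out this count ranged from 4157 (without control replicate 3; 4299 without CFD diet replicate 3) to 7037. The count of other UGT genes called higher, 1, became 0 with normexp and with probes well above background on all 6 arrays. UDP-glucuronate genes called higher fell from 2 to 1 after scaling to the array median. Bilirubin and transport genes called lower numbered 4, 2 without the filter on dim probes, and 2 to 4 with single arrays left out (2 without control replicates 2 and 3 and without CFD diet replicates 1 and 3). Regulators called higher numbered 2, and 0 after scaling to the array median, without the filter and with the slide as a block, and 0 to 2 with single arrays left out (0 without control replicates 2 and 3 and without CFD diet replicates 1 and 3, and 1 without control replicate 1). The cause of these changes was not tested.

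With the slide as a replicate block, 5496 probes were lower and 4803 higher, and all 10 UGT probes stayed lower. Among the genes followed one by one, the block ended the calls of Esr1 (adjusted p = 0.0752) and Nfe2l2 (0.0523) and of no other. The count of UDP-glucuronate genes called lower went from 6 to 5 with the block, and that of regulators called lower from 14 to 13. These counts moved more in other alternatives. The UDP-glucuronate count was 4 after quantile normalization and 7 after scaling to the array median. The regulator count was 10 without the filter on dim probes, 12 after quantile normalization and 16 after scaling to the array median. With single arrays left out the regulator count was 11 to 14. With 3 arrays in each group a fall the size of that of Ugt2b34 lies near the threshold, and probes below background have only bounds.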
